A study of Mus musculus with 10 samples.

Results

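The 10 genes described here mark inhibitory neurons of the mouse brain: Gad1, Gad2, Slc32a1, Pvalb, Sst, Vip, Npy, Lhx6, Cck and Lamp5. They were chosen by name, and all 10 were found among the 54532 genes of the count files. They were followed in RNA sequencing libraries of neuronal nuclei, sorted from whole adult brains by the neuronal antigen NeuN, in mice that lacked Mphosph8 or Morc2a in the nervous system. All mice were C57BL/6J adults, and all carried floxed alleles on both copies of a gene. Control replicates 1 to 3 were Mphosph8fl/fl Nestin-Cre-, and control replicates 4 and 5 were Morc2afl/fl Nestin-Cre-. The 3 Mphosph8Δ/Δn libraries came from Mphosph8fl/fl Nestin-Cre+ mice and the 2 Morc2aΔ/Δn libraries from Morc2afl/fl Nestin-Cre+ mice. Nestin-Cre recombines in neural progenitors, so the deletion reaches excitatory neurons, inhibitory neurons and the glia of the same lineage. No control carried Cre, so an effect of the transgene itself cannot be told apart from that of the deletion.

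Inhibitory neurons make γ-aminobutyric acid (GABA) from glutamate and load it into synaptic vesicles. Those of the forebrain fall into classes that are named after the peptides and calcium-binding proteins they hold, while GABA neurons of the striatum, midbrain and cerebellum share the synthesis machinery but few of the class markers. MPHOSPH8 reads methylated histone H3 lysine 9 as part of the HUSH silencing complex, and MORC2A is an ATPase that works with it. The comparison of each knockout with controls asked whether inhibitory neuron transcripts were kept at their level without either protein.

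Library totals ran from 6686038 to 10764555 counts, with the lowest in control replicate 5. Levels are given in CPM, counts relative to the library total, scaled between libraries by the trimmed mean of M values. The quasi-likelihood test of edgeR was run over the 18573 genes that passed a filter on low counts, all 10 inhibitory neuron genes among them, and a call needed both a fold above 2 and a Benjamini-Hochberg adjusted p under 0.05. Replicates are separate libraries, and the labels do not say whether each came from 1 brain, so p-values measure the spread between these libraries. Rbfox3, which encodes the NeuN antigen, was between 150 and 304 CPM over the 10 libraries. Mphosph8 was at 18.8 to 37.2 CPM in the Mphosph8Δ/Δn libraries against 32.2 to 49.0 CPM in controls, and Morc2a was at 215 and 223 CPM in the Morc2aΔ/Δn libraries against 122 to 163 CPM in controls. In both lines a single exon was floxed, and counts over the whole gene also take reads outside it, so these levels do not check the deletion. One library of each knockout held a gene far above the rest: Pask made up 2.26% of the counts of Morc2aΔ/Δn replicate 1, and Gh reached 108 CPM in Mphosph8Δ/Δn replicate 2. Glial transcripts were present after the sort: over all libraries the summed level of 10 oligodendrocyte genes was 583 to 1031 CPM and that of 9 astrocyte genes 538 to 733 CPM. The oligodendrocyte sums of Morc2aΔ/Δn, 728 CPM in replicate 1 and 583 CPM in replicate 2, were below those of all other libraries. The sum of 9 microglial genes was 29.9 to 61.6 CPM and that of 9 endothelial and pericyte genes 9.10 to 19.6 CPM.

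Of the 10 genes, 4 peptide genes had the lowest p-values in Morc2a loss, given below, so the 120 bases before their transcription starts are shown (RefSeq, GRCm38.p6). In the Sst, Vip and Cck stretches, capitals mark the letters of the cyclic AMP response element, the known target of the factor CREB, as the whole TGACGTCA or as the shorter TGACG on either strand; the whole element holds the shorter one on both strands. In the Vip stretch they also mark TATAAA. The Npy stretch holds none of these letters. The stretches lie at chr16:23890845-23890964 on the minus strand for Sst, chr10:5639098-5639217 on the plus strand for Vip, chr9:121495695-121495814 on the minus strand for Cck and chr6:49822590-49822709 on the plus strand for Npy.
Sst: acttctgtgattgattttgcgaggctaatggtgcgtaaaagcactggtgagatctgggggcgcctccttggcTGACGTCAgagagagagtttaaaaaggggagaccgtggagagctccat
Vip: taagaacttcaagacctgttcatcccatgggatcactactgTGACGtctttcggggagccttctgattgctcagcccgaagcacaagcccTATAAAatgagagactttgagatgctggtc
Cck: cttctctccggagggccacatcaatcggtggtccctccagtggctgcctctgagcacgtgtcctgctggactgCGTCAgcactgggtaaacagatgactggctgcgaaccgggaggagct
Npy: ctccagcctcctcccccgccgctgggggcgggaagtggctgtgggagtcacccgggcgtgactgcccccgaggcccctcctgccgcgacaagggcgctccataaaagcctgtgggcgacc
The whole element was found at 48 bases before the start of Sst, the shorter letters at 79 bases before the start of Vip and at 47 bases before the start of Cck. Over 32851 promoter windows of 250 bases, both strands searched, the whole element was in 1.55%, the shorter letters in 17.8% and TATAAA in 12.4%. Of the other genes, Gad2 held the shorter letters at 33 bases before its start and Gad1 held TATAAA at 141 bases before its start.

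In control neurons 3 peptide genes had the highest levels per kilobase. Sst, which encodes somatostatin, stood at 629 ± 71.2 CPM per kilobase of exon (SD, n = 5), followed by Npy, which encodes neuropeptide Y, at 322 ± 36.7, and Cck, which encodes cholecystokinin, at 236 ± 31.3. Gad1, the larger of the glutamate decarboxylase isoforms that make GABA, stood at 112 ± 19.4 CPM per kilobase, and Lamp5, a lysosome-associated membrane protein that marks neurogliaform cells, at 86.4 ± 10.6. The ranges of Gad1 and Lamp5 overlapped, although Gad1 was the higher in all 5 libraries. Pvalb, the calcium buffer parvalbumin of fast-spiking basket cells, and Gad2, the synaptic decarboxylase, were at 36.9 ± 10.9 and 35.4 ± 5.55 CPM per kilobase and swapped order between libraries, Pvalb being the higher in 3 of 5. Vip, which encodes vasoactive intestinal peptide, followed at 22.7 ± 3.64, with a range that overlapped that of Gad2. Lowest per kilobase were Slc32a1, the vesicular GABA transporter, at 9.62 ± 3.22 CPM per kilobase, and Lhx6, the transcription factor of interneurons born in the medial ganglionic eminence, at 4.09 ± 0.952. Cck, Npy and Sst are also made by other neurons, Cck by many excitatory cells of the cortex, so these levels are those of sorted neurons and not of interneurons alone.

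**Figure D1:**
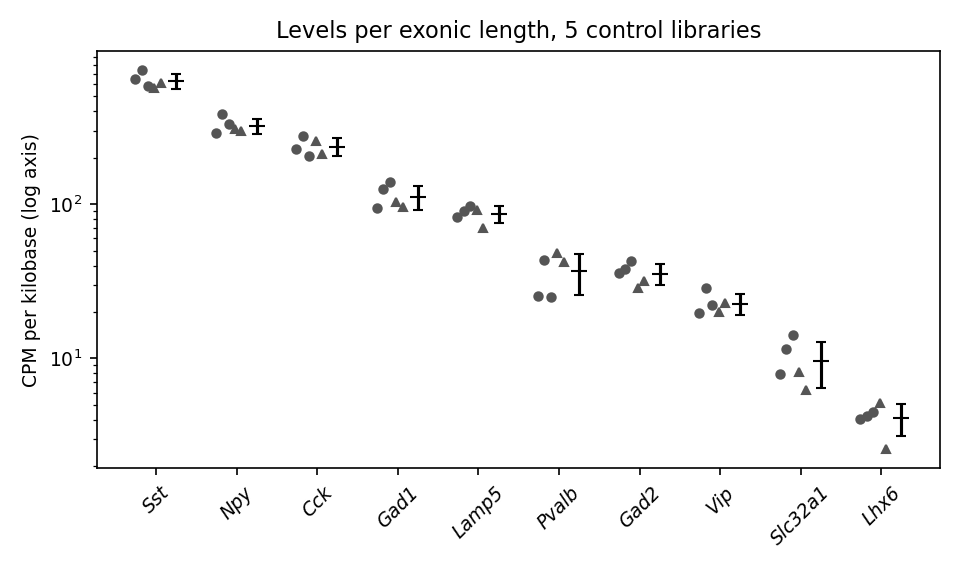
Level of each gene in CPM per kilobase of exon (log axis) in the 5 control libraries, circles for the Mphosph8 floxed line and triangles for the Morc2a floxed line, with the mean and SD beside the points. Sst at 629 and Lhx6 at 4.09 CPM per kilobase are the ends of the order, and the points of Pvalb and Gad2 share a range.

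The enzymes and the transporter of GABA come first. Gad1 (chromosome 2, 70553072 to 70602014, plus strand, GRCm38) was at 722, 954, 1059, 794 and 731 CPM in control replicates 1 to 5, at 872, 766 and 824 CPM in Mphosph8Δ/Δn replicates 1 to 3, and at 710 and 649 CPM in Morc2aΔ/Δn replicates 1 and 2. The Mphosph8Δ/Δn libraries lay inside the control range, and both Morc2aΔ/Δn libraries lay below the lowest control. The log2 fold change was -0.05 ± 0.12 (SE) in Mphosph8 loss and -0.33 ± 0.14 in Morc2a loss, with adjusted p of 0.997 and 0.423. Gad2 (chromosome 2, 22622205 to 22693874, plus strand) was at 211, 224, 252, 167 and 188 CPM in controls, 241, 220 and 218 CPM in Mphosph8Δ/Δn and 183 and 169 CPM in Morc2aΔ/Δn libraries. All 5 knockout libraries were within the control range, and the log2 fold changes were 0.12 ± 0.13 and -0.24 ± 0.15.

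Slc32a1 (chromosome 2, 158610767 to 158615748, plus strand) was at 22.3, 32.2, 39.9, 22.8 and 17.4 CPM in controls, 22.9, 40.3 and 50.5 CPM in Mphosph8Δ/Δn and 30.6 and 17.2 CPM in Morc2aΔ/Δn libraries. It had the widest spread of the 10 genes in controls, with a coefficient of variation of 33.5%, and the groups overlapped. The log2 fold change in Mphosph8 loss, 0.49 ± 0.29, was the highest of the 10 and had an adjusted p of 0.933, with a 95% interval from -0.13 to 1.11. Of its exonic bases, 24.9% lie opposite an annotated antisense gene, Gm14205, which had no count in any library. The ratio of Gad1 to Gad2 levels stayed between 3.43 and 4.75 in controls, 3.48 and 3.77 in Mphosph8Δ/Δn and 3.85 and 3.87 in Morc2aΔ/Δn libraries.

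The medial ganglionic eminence gives rise to interneurons that hold Lhx6 and then Pvalb or Sst, many of the latter with Npy. Lhx6 (chromosome 2, 36081953 to 36105408, minus strand) was at 19.4, 20.2, 21.6, 24.7 and 12.3 CPM in controls, 22.5, 23.0 and 18.2 CPM in Mphosph8Δ/Δn and 16.0 and 12.6 CPM in Morc2aΔ/Δn libraries. Control replicate 5, the shallowest library, held the lowest level. The log2 fold changes were 0.11 ± 0.25 and -0.46 ± 0.29. Pvalb (chromosome 15, 78191114 to 78206400, minus strand) was at 26.3, 45.4, 26.1, 50.4 and 43.8 CPM in controls, 35.1, 38.6 and 35.6 CPM in Mphosph8Δ/Δn and 35.8 and 15.8 CPM in Morc2aΔ/Δn libraries. The Morc2aΔ/Δn replicates lay on either side of the lowest control. The log2 fold changes were -0.08 ± 0.27 in Mphosph8 loss and -0.57 ± 0.32 in Morc2a loss, with adjusted p of 0.998 and 0.551. Pvalb is also made by cerebellar neurons, and the summed level of 10 granule cell genes was 593 CPM in control replicate 4 against 99.5 to 147 CPM in the other controls, 149 to 518 CPM in Mphosph8Δ/Δn and 99.4 and 99.6 CPM in Morc2aΔ/Δn libraries; the part of cerebellar nuclei in the Pvalb levels was not tested.

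Sst (chromosome 16, 23889573 to 23890958, minus strand) was at 464, 537, 419, 407 and 441 CPM in controls, 486, 521 and 591 CPM in Mphosph8Δ/Δn and 387 and 252 CPM in Morc2aΔ/Δn libraries. Both Morc2aΔ/Δn libraries lay below every control, and 1 of the 3 Mphosph8Δ/Δn libraries lay above every control. The log2 fold change was 0.23 ± 0.13 in Mphosph8 loss (adjusted p = 0.927) and -0.51 ± 0.16 in Morc2a loss (adjusted p = 0.248). Npy (chromosome 6, 49822710 to 49829507, plus strand) was at 165, 217, 187, 173 and 170 CPM in controls, 162, 176 and 206 CPM in Mphosph8Δ/Δn and 159 and 99.2 CPM in Morc2aΔ/Δn libraries. The log2 fold changes were -0.01 ± 0.15 and -0.50 ± 0.18, the latter with an adjusted p of 0.314. The ratio of Sst to Npy levels was 2.88 to 3.01 in the 3 Mphosph8Δ/Δn libraries, above the 2.24 to 2.81 of all 5 controls, and 2.43 and 2.54 in the Morc2aΔ/Δn libraries. This ratio was not tested.

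Vip and Lamp5 mark classes born in the caudal ganglionic eminence, and Cck marks basket cells that carry cannabinoid receptors. Vip (chromosome 10, 5639218 to 5647617, plus strand) was at 66.8, 97.7, 75.4, 68.1 and 78.1 CPM in controls, 101, 124 and 74.1 CPM in Mphosph8Δ/Δn and 60.3 and 44.0 CPM in Morc2aΔ/Δn libraries. Of the Mphosph8Δ/Δn libraries, 2 lay above every control, and both Morc2aΔ/Δn libraries lay below every control. The log2 fold change was 0.37 ± 0.18 in Mphosph8 loss, with the lowest adjusted p of the 10 genes in that comparison (0.894), and -0.57 ± 0.22 in Morc2a loss (adjusted p = 0.350). Cck (chromosome 9, 121489824 to 121495694, minus strand) was at 295, 364, 267, 336 and 277 CPM in controls, 247, 275 and 330 CPM in Mphosph8Δ/Δn and 238 and 156 CPM in Morc2aΔ/Δn libraries. It had the lowest log2 fold change of the 10 genes in both comparisons, -0.12 ± 0.15 in Mphosph8 loss (adjusted p = 0.997) and -0.64 ± 0.18 in Morc2a loss (adjusted p = 0.181). Lamp5 (chromosome 2, 136052239 to 136069917, plus strand) was at 241, 267, 284, 271 and 205 CPM in controls, 253, 279 and 283 CPM in Mphosph8Δ/Δn and 264 and 173 CPM in Morc2aΔ/Δn libraries. Its groups overlapped, and the log2 fold changes were 0.10 ± 0.14 and -0.22 ± 0.16.

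**Figure D2:**
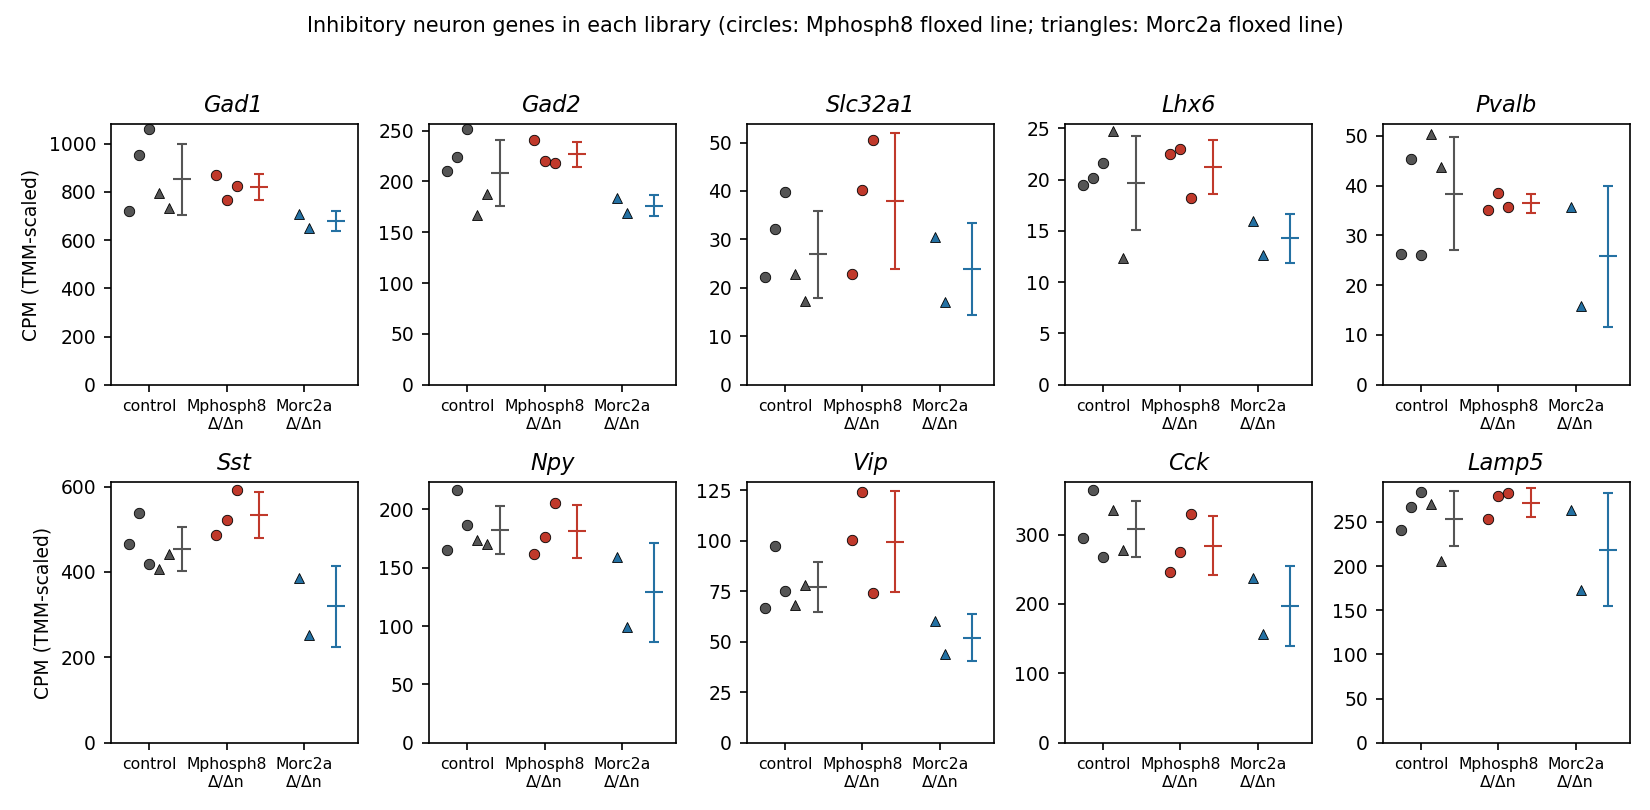
Level of each gene (CPM, linear axes from 0) in every library, by group, with the mean and SD of the group beside the points; circles are the Mphosph8 floxed line and triangles the Morc2a floxed line. The 2 Morc2aΔ/Δn points lie below all 5 controls for Gad1, Sst, Npy, Vip and Cck, and the Mphosph8Δ/Δn points overlap the controls for all 10 genes.

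In Mphosph8 loss none of the 10 genes was called, against 0.0969% of all genes tested. At an unadjusted p below 0.05 the count was also 0 of 10 (5.67% of all genes), and DESeq2 and limma-voom called none. The log2 fold change was positive for 6 genes (48.7% of all genes) and negative for 4, with a median of 0.10 beside -0.01 over all genes. The median was 0.011 with 5 genes negative without control replicate 5, and 0.049 with same-line controls alone. With 1 library left out, up to 2 genes had an unadjusted p below 0.05, the 2 without control replicate 2. For none of the 10 did the 3 Mphosph8Δ/Δn libraries stand clear of the 5 controls, which 2.31% of all genes did upward and 2.26% downward. The 95% interval lay within a 2-fold change either way for 9 of the 10 genes, Slc32a1 being the exception. Levels were also taken relative to the summed level of 10 pan-neuronal genes in the same library, a setting chosen after seeing the data. On this scale 8 of the 10 genes were higher on average, with a median log2 difference of 0.15. Sst alone lay above all controls in the 3 libraries, and the share of all genes that do so on this scale was not computed.

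In Morc2a loss none of the 10 genes was called, against 0.0592% of all genes tested, and DESeq2 and limma-voom again called none. All 10 log2 fold changes were negative, as were 51.3% of those of all genes, with a median of -0.48 beside -0.01 over all genes. At an unadjusted p below 0.05 there were 5 genes, all lower: Gad1, Sst, Vip, Npy and Cck. That share stands beside 6.4% of all genes lower at this level. In the same 5 genes both Morc2aΔ/Δn libraries lay below all 5 controls, which 7.8% of all genes did. They are a decarboxylase gene and 4 peptide genes, whose promoters were printed above because of these p-values. The 95% interval lay within a 2-fold change for 6 of the 10 genes, and that of Pvalb, Vip, Lhx6 and Cck reached beyond it. Under DESeq2 the adjusted p of Cck was 0.0133, at a fold below 2, and over 8 other settings of the fit, no replicate removed, it was between 0.0133 and 0.358. For Sst that range was 0.0413 to 0.518. In bulk libraries, fewer nuclei of a class and less RNA per nucleus cannot be told apart.

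**Figure D3:**
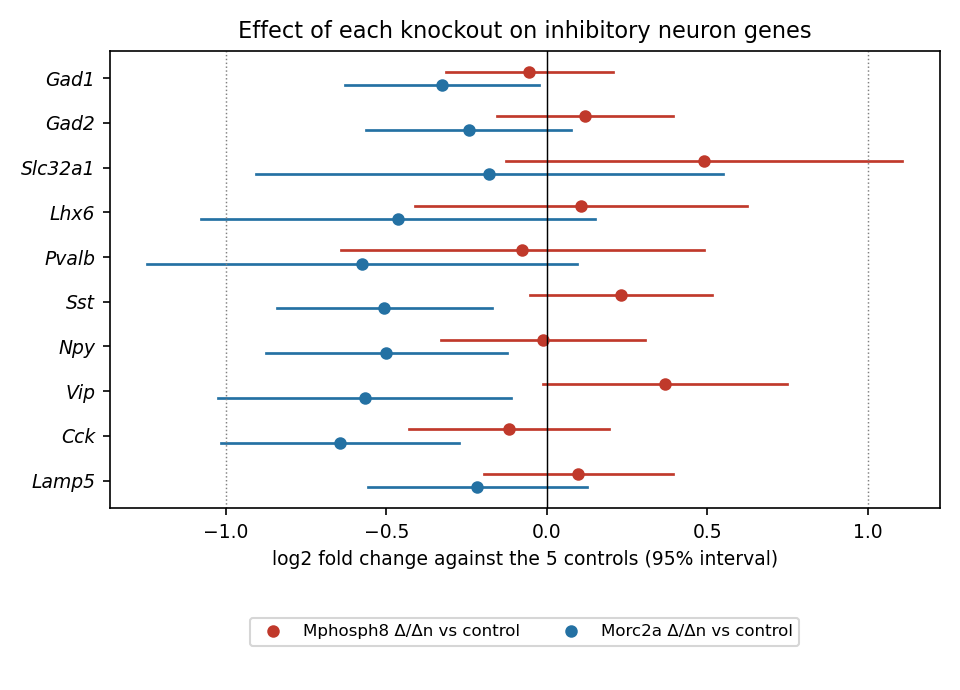
Log2 fold change of each gene in Mphosph8Δ/Δn (red) and Morc2aΔ/Δn (blue) libraries against the 5 controls, with bars for the 95% interval and dotted lines at a 2-fold change. All blue points lie left of 0, from -0.64 for Cck to -0.18 for Slc32a1, and the red points lie from -0.12 for Cck to 0.49 for Slc32a1.

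On the CPM scale, the lower levels rested largely on 1 of the 2 Morc2aΔ/Δn libraries. Replicate 2 was the lowest of all 10 libraries for 8 of the 10 genes, whereas it was the lowest for 15.2% of the 12504 genes with a mean of at least 5 CPM. Its median difference from the control mean over the 10 genes was -0.71 on the log2 scale of CPM + 1, against -0.21 in replicate 1 and between -0.15 and 0.24 in the single controls. Without replicate 2, the median log2 fold change was -0.22, 8 of 10 genes were negative, none had an unadjusted p below 0.05 and the smallest adjusted p was 0.685. Without replicate 1, the median was -0.73, 6 genes had an unadjusted p below 0.05 and the smallest adjusted p was 0.0838. Replicate 2 also stood apart in other neuronal genes and in oligodendrocyte genes. The summed level of 10 pan-neuronal genes was 3706 CPM there and 4454 CPM in replicate 1, against 4611 to 5293 CPM in controls, and that of 10 glutamatergic genes was 983 and 1791 CPM, against 1469 to 1908 CPM. The pan-neuronal genes were mixed: in Morc2a loss 6 had a negative and 4 a positive log2 fold change. At an unadjusted p below 0.05, 4 were lower and 2 higher, and DESeq2 called 1 of them, Rbfox1. The summed level of 10 oligodendrocyte genes was 583 CPM in replicate 2 and 728 CPM in replicate 1, against 798 to 1023 CPM in controls. That of 9 astrocyte genes, 631 and 646 CPM, was inside the control range of 595 to 733 CPM. The nuclear RNA Snhg11 was at 14668 CPM in replicate 2, against 9518 to 12737 CPM in controls. The part of these shifts in the result was not tested. Relative to the pan-neuronal sum of the same library, 7 of the 10 genes were lower on average in Morc2aΔ/Δn, with a median log2 difference of -0.20. Vip alone lay below all controls in both libraries. Relative levels were a setting chosen after seeing the data, and shares of all genes on this scale were not computed. Relative to the glutamatergic sum, 6 of 10 were lower, with a median of -0.14, and none lay clear of the controls. On that scale replicate 1 was the lower library for every gene but Pvalb. Gad1 was at 39.6% of the sum in replicate 1 and 66.0% in replicate 2, against 39.9% to 61.6% in controls. Sst was at 21.6% and 25.7%, against 24.4% to 30.0%, and Pvalb at 2.00% and 1.61%, against 1.46% to 3.23%.

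**Figure D4:**
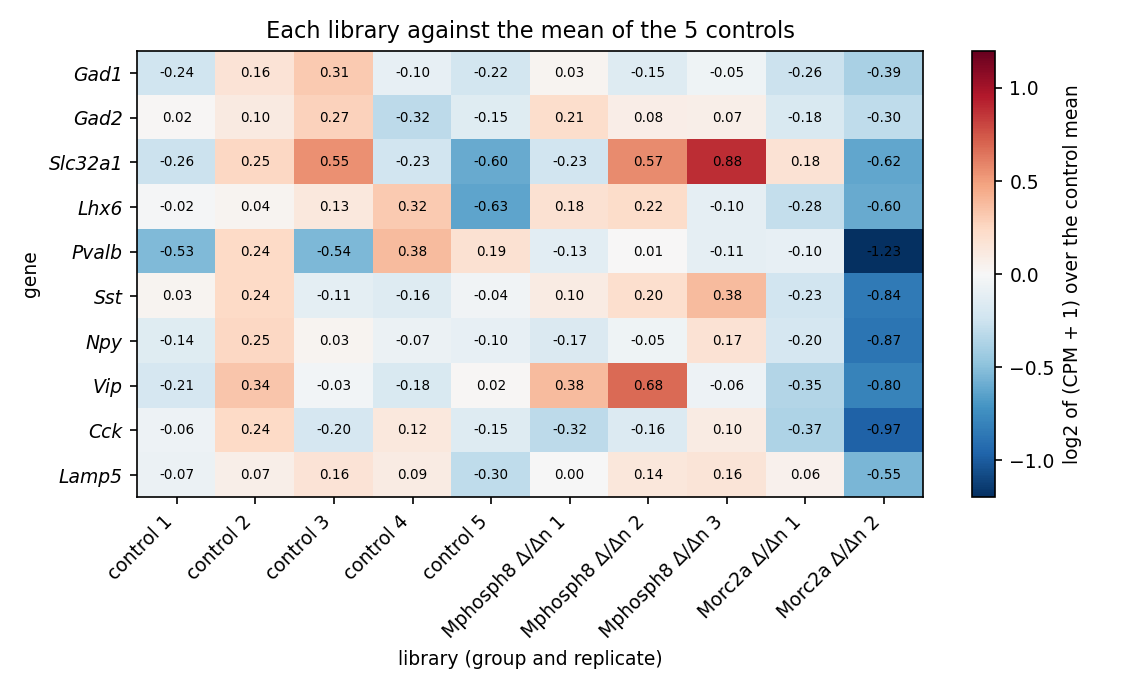
Log2 of CPM + 1 over the control mean for each gene (rows) in each library (columns); blue is below and red above the control mean. The column of Morc2aΔ/Δn replicate 2 is negative for all 10 genes with a median of -0.71, that of replicate 1 for 8 genes with a median of -0.21, control replicate 2 is above the control mean for all 10 genes with a median of 0.24, and the other 4 controls hold genes on both sides of 0.

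The 2 control lines were compared because the knockouts were bred on different floxed alleles. None of the 10 genes was called between Morc2a-line and Mphosph8-line controls (0.129% of all genes), and DESeq2 and limma-voom called none. At an unadjusted p below 0.05 there was 1 gene, against 9.21% of all genes. It was Gad2, at a log2 difference of -0.37 ± 0.14 and an adjusted p of 0.404. Gad2 was at 167 and 188 CPM in the Morc2a-line controls and at 211 to 252 CPM in the Mphosph8-line controls, without overlap. The share of all genes without overlap between lines was not computed. The difference was negative for 9 of 10 genes (50.3% of all genes), with a median of -0.15, and positive for Pvalb at 0.53 ± 0.31. The median was -0.22 without control replicate 1 or 4 and -0.093 without control replicate 2, and without control replicate 3 or 4 no gene had an unadjusted p below 0.05. Against same-line controls alone, 9 of 10 genes were lower in Morc2a loss, with a median of -0.40, and 3 had an unadjusted p below 0.05. Slc32a1 then took the other sign, at 0.24.

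Both effects were compared directly, each knockout against its own line, so that no control was shared. The effect of Mphosph8 loss minus that of Morc2a loss was called for none of the 10 genes and for 0% of all genes, and limma-voom called no gene. DESeq2 called none of the 10. At an unadjusted p below 0.05 there were 3 genes, all with the higher value in Mphosph8 loss, where 3.91% of all genes were higher at this level. Pvalb differed by 1.03 ± 0.45 on the log2 scale (95% interval 0.09 to 1.97, adjusted p = 0.578), Vip by 0.80 ± 0.32 (0.12 to 1.49, adjusted p = 0.539) and Sst by 0.58 ± 0.23 (0.09 to 1.07, adjusted p = 0.527). The difference was positive for 9 of 10 genes (50.3% of all genes), with a median of 0.39. The median was 0.22 with 4 genes negative without control replicate 4, the library with the most granule cell transcripts, 0.14 with 4 negative without Morc2aΔ/Δn replicate 2, and 0.66 without Morc2aΔ/Δn replicate 1. For Gad1 and Gad2 the values were 0.01 ± 0.20 and -0.0044 ± 0.19. The count at an unadjusted p below 0.05 was 0 without Morc2aΔ/Δn replicate 2, 1 without control replicate 1 or 3 or Mphosph8Δ/Δn replicate 2, and 6 without Morc2aΔ/Δn replicate 1.

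The 10 genes varied together over libraries. Pearson's r of log2(CPM + 1) over the 10 libraries was positive for all 45 pairs, with a median of 0.587 and 12 pairs above 0.7. Within groups, after subtraction of the group means, the median was 0.388. The closest pairs were Npy with Cck (0.93), Sst with Npy (0.90) and Sst with Cck (0.83), all of them peptide genes, and the least alike were Gad2 with Pvalb (0.05). Replicate 2 of Morc2aΔ/Δn and the scaling of each library are shared by all pairs, and the values are descriptive. Among the 12503 other genes with a mean of at least 5 CPM, those most like Gad1 were Bcl11b (0.94), Fam20c (0.93) and Meis2 (0.92), those most like Pvalb were Cox6a1 (0.97), Cox6b1 (0.96) and Ndufa6 (0.95), and those most like Sst were Rhov (0.97), Slc2a13 (0.94) and Arl6ip1 (0.93). For Npy they were Gm32250 (0.99) and Atp6v1f (0.96), for Vip Ntrk2, Mobp and Glod4 (all 0.93), for Cck Caly, Pnkd and Cnpy3 (all 0.95) and for Lamp5 Lynx1 (0.96), B2m and Bsg (both 0.95). For Gad2 they were Dennd5b (0.96), Nim1k (0.96) and Cds2 (0.95), for Slc32a1 Zkscan1 (0.97), Def8 and Gnaq (both 0.93) and for Lhx6 Slc35g2 (0.97), Mapre2 and Gna11 (both 0.95).

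The wider inhibitory system was read from lists of genes for GABA handling, its receptors, inhibitory lineage factors and further interneuron classes. In both knockout comparisons edgeR called no gene of these lists. Among 22 further subtype genes, 19 had a negative log2 fold change in Morc2a loss, with a median of -0.39, and 7 had an unadjusted p below 0.05, all lower. Over all genes 51.3% were negative and 6.4% lower at this level. Nxph1, a secreted ligand of neurexins that interneurons make, was at 28.6 and 25.8 CPM in the Morc2aΔ/Δn libraries and at 47.5 to 68.5 CPM in the 5 controls and 51.9 to 67.0 CPM in the Mphosph8Δ/Δn libraries. Its Morc2aΔ/Δn libraries stood clear of all others, and 7.8% of all genes lay below all 5 controls in Morc2a loss. The log2 fold change was -1.0 ± 0.21 with an adjusted p of 0.0811. DESeq2 called it and limma-voom did not. With no replicate removed, 8 other settings of the fit gave an adjusted p between 0.000507 and 0.274. The log2 fold change of Nxph1 did not rest on the library that set the 10 marker genes apart. It stayed between -1.07 and -0.90 over the removal of each library in turn. Of the other 6, Calb2, which encodes calretinin, was at -1.23 ± 0.44 against controls of which replicate 4 held 78.4 CPM and the others 18.9 to 31.4 CPM, Crhbp, a binding protein for corticotropin-releasing hormone, at -0.73 ± 0.29 and Id2 at -0.52 ± 0.17. Penk, which encodes enkephalin, was at -0.40 ± 0.14, the cannabinoid receptor gene Cnr1 at -0.38 ± 0.15 and Tac1, which encodes substance P, at -0.38 ± 0.17. Adjusted p of these 6 lay between 0.258 and 0.451, and Penk and Tac1 are also transcripts of striatal projection neurons.

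In Mphosph8 loss 15 of the 22 subtype genes had a positive log2 fold change, with a median of 0.14, and 4 had an unadjusted p below 0.05, all higher (2.58% of all genes). Crhbp was at 41.2, 29.6 and 57.3 CPM in the Mphosph8Δ/Δn libraries against 20.4 to 34.3 CPM in controls, at 0.60 ± 0.24. The 5 control libraries overlapped these. Cort, which encodes cortistatin, was at 0.66 ± 0.30, Pnoc, which encodes the nociceptin precursor, at 0.58 ± 0.23 and Chodl, a marker of long-range somatostatin neurons, at 1.72 ± 0.74 from control levels of 0.297 to 4.68 CPM, the highest in replicate 2. Adjusted p of these 4 lay between 0.81 and 0.872, and DESeq2 and limma-voom called none of them. Pnoc was at 23.3 to 30.9 CPM in Mphosph8Δ/Δn libraries, above all 5 controls, which were at 14.2 to 20.3 CPM. It was the only 1 of the 22 to stand clear upward, beside 2.31% of all genes. Another 1 of the 22 stood clear downward, beside 2.26% of all genes.

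Of 16 tested subunits of the GABA-A receptor, the chloride channel that GABA opens, 14 had a negative log2 fold change in Morc2a loss. The median over the 16 was -0.31. At an unadjusted p below 0.05 there were 4, all lower, Gabra5, Gabra6 and Gabrb2 among them. Over all genes 51.3% were negative and 6.4% lower at this level. Gabra5, enriched in the hippocampus, was at -0.46 ± 0.20 and Gabrb2 at -1.83 ± 0.62. Gabra6 is made by cerebellar granule cells and was at 0 and 0.745 CPM in the Morc2aΔ/Δn libraries against 2.26 to 103 CPM in controls, with the highest control in replicate 4. Gabbr2, a subunit of the metabotropic GABA-B receptor, was at 138 and 124 CPM against 154 to 216 CPM in controls, at -0.58 ± 0.15 and an adjusted p of 0.170. Gabrd, the δ subunit of receptors outside the synapse, had a log2 fold change of -0.23 ± 0.17 in Morc2a loss. In Mphosph8 loss the subunit with the lowest p was Gabrq, at 1.04 ± 0.34 and an adjusted p of 0.746, with 21.6, 31.0 and 14.7 CPM against 6.08 to 17 CPM in controls. Gabra4 and Gabrb2 were lower at an unadjusted p below 0.05, at -0.41 ± 0.16 and -1.43 ± 0.51, both with adjusted p above 0.78. Lhfpl4, which anchors GABA-A receptors at synapses, was at 0.46 ± 0.15 in Mphosph8 loss with an adjusted p of 0.746. In its list of GABA-B receptor and scaffold genes, 2 others had an unadjusted p below 0.05 and were lower, Kctd16, an auxiliary subunit of the GABA-B receptor with 10.4% of its exonic bases opposite another annotated gene, at -0.50 ± 0.19 (adjusted p = 0.810) and Shisa7 at -0.38 ± 0.18 (adjusted p = 0.880).

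Shisa7, a transmembrane protein that binds GABA-A receptors and regulates their trafficking, went the other way from the inhibitory neuron genes in Morc2a loss. It was at 87.5, 55.0, 69.3, 95.2 and 91.0 CPM in controls, 49.3, 68.0 and 66.1 CPM in Mphosph8Δ/Δn and 163 and 162 CPM in Morc2aΔ/Δn libraries. Both Morc2aΔ/Δn libraries stood well above the other 8, and the share of all genes that do so was not computed. The log2 fold change was 1.03 ± 0.19 with an adjusted p of 0.0528, just outside the threshold. DESeq2 called it at an adjusted p of 0.000296 and limma-voom at 0.0158, and against same-line controls the log2 fold change was 0.80 with an adjusted p of 0.262. With no replicate removed, 8 other settings gave an adjusted p between 3.28e-06 and 0.262. Over the removal of each library in turn the log2 fold change stayed between 0.92 and 1.09. Its effect differed between both knockouts by -1.0 ± 0.28 with an adjusted p of 0.403.

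Other parts of the system are given beside the shares of all genes. At an unadjusted p below 0.05, either direction, there were 1991 of 18573 genes in Morc2a loss and 5.67% in Mphosph8 loss. Of the 11 genes of GABA synthesis, transport and breakdown, of which 3 are among the 10 marker genes, 2 were lower and 1 was higher in Morc2a loss at an unadjusted p below 0.05. The lower were Gad1 and the transporter gene Slc6a13, which reached at most 3.90 CPM in any library. Of 22 inhibitory lineage transcription factors, Prox1 was lower in Morc2a loss (-1.58 ± 0.62), and in Mphosph8 loss Gata3 (0.92 ± 0.36) and Tal1 (1.41 ± 0.60), which specify GABA neurons of the midbrain and hindbrain, were higher and Satb1 (-0.28 ± 0.13) was lower, all at adjusted p of 0.361 or more. Dlx1 and Adarb2, among the factors with the highest level per kilobase, had log2 fold changes of -0.06 ± 0.32 and -0.22 ± 0.18 in Morc2a loss. Of 12 channel and synapse genes of fast-spiking cells, Cplx1 was lower in Morc2a loss (-0.49 ± 0.20) at an unadjusted p below 0.05, and none was at this level in Mphosph8 loss.

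GABA neurons that project over long distances use the same enzymes. Of 9 tested genes of striatal medium spiny neurons, all 9 had a negative log2 fold change in Mphosph8 loss, with a median of -0.26. In Morc2a loss 8 had one, with a median of -0.25. Over all genes 48.7% were positive in Mphosph8 loss and 51.3% negative in Morc2a loss. Pde10a, the phosphodiesterase of these cells, lay below all 5 controls in Mphosph8 loss, as did 2.26% of all genes. It was at 348, 395 and 400 CPM in the Mphosph8Δ/Δn libraries against 479 to 604 CPM in controls. Its log2 fold change was -0.53 ± 0.11 with an adjusted p of 0.0853. With no replicate removed, 8 other settings of the fit gave an adjusted p between 0.000716 and 0.160, and its fold stayed under 2. Of 9 Purkinje cell genes, 8 had a positive value in Mphosph8 loss, with a median of 0.17, and 5 a negative one in Morc2a loss, with a median of -0.10. At an unadjusted p below 0.05, 3 of them were lower and none was higher in Morc2a loss, beside 6.4% of all genes lower at this level. Slc6a5, the glycine transporter of inhibitory neurons of the brainstem and spinal cord, was at 33.7, 32.5 and 20.4 CPM in the Mphosph8Δ/Δn libraries against 17.5 to 22.7 CPM in controls, at 0.48 ± 0.23 and an adjusted p of 0.876.

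**Figure D5:**
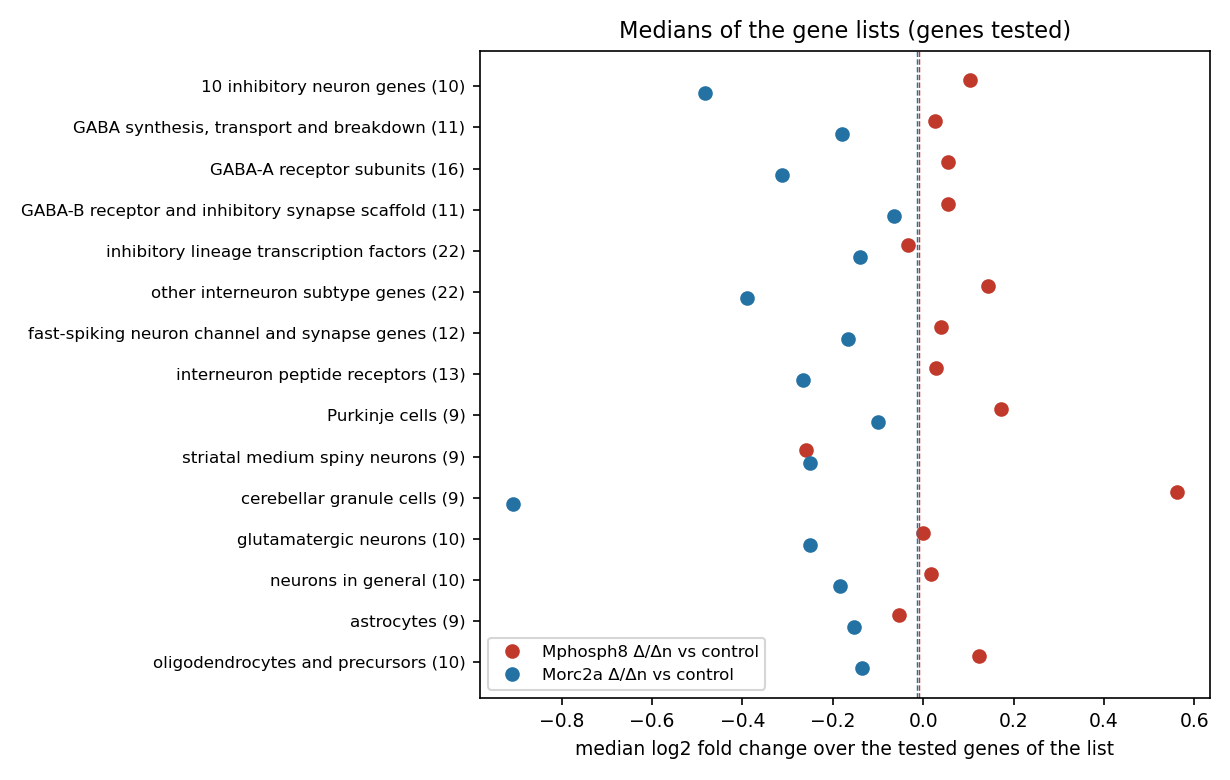
Median log2 fold change of each gene list in Mphosph8Δ/Δn (red) and Morc2aΔ/Δn (blue) libraries against the 5 controls, with the number of genes tested in parentheses and dashed lines at the medians of all genes. In Morc2a loss the 10 marker genes (-0.48) and the other interneuron subtype genes (-0.39) have lower medians than the pan-neuronal list (-0.18) and the glutamatergic list (-0.25). Relative to the glutamatergic sum of each library, the median of the 10 marker genes was -0.14. The lowest median is that of the cerebellar granule cell list (-0.91). Its summed level was 593 CPM in control replicate 4 and 99.5 to 147 CPM in the other controls.

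The receptor of the Vip peptide separated the control lines. Vipr2, which encodes the receptor VPAC2 (chromosome 12, 116077726 to 116146261, plus strand), was at 66.1, 107 and 111 CPM in the Mphosph8-line controls and at 31.4 and 33.4 CPM in the Morc2a-line controls. Libraries of the Mphosph8 line did not overlap those of the Morc2a line, since the Mphosph8Δ/Δn libraries were at 107, 78.3 and 85.4 CPM and the Morc2aΔ/Δn libraries at 47.1 and 51.8 CPM. Between control lines the log2 difference was -1.55 ± 0.23 with an adjusted p of 0.00789, and DESeq2 and limma-voom called it too. The call was lost without control replicate 3, 4 or 5, at adjusted p of 0.0568, 0.0956 and 0.0867, while the log2 difference stayed between -1.75 and -1.42. Against all 5 controls the knockout effects on Vipr2 were 0.37 ± 0.32 and -0.50 ± 0.39, and against same-line controls they took the other sign, at -0.07 and 0.61. Line and any other difference between both sets of animals cannot be told apart. Among the 13 peptide receptor genes, the other 12 were not called between lines, and the 3 with the highest level per kilobase, Adcyap1r1, Cckbr and Sstr2, had log2 fold changes of -0.07 ± 0.15, -0.08 ± 0.16 and -0.16 ± 0.28 in Morc2a loss. Npy1r, a receptor of neuropeptide Y, was at -0.48 ± 0.22 in Mphosph8 loss and -0.58 ± 0.25 in Morc2a loss, with adjusted p of 0.872 and 0.415. Vipr1, the other receptor of Vip, had the lowest p of this list in Morc2a loss and was higher (0.92 ± 0.39, adjusted p = 0.396). It was at 11.8 and 15.6 CPM against 6.37 to 8.47 CPM in controls without overlap. The share of all genes higher without overlap in Morc2a loss was not computed.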

How the data were processed

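The authors enriched poly(A) RNA from NeuN+ nuclei, trimmed and aligned the reads to GRCm38 and summed them per gene (featureCounts, Subread 1.6.2). Raw read counts without normalization were deposited. The strand setting and the treatment of reads over several genes were not given in the sources used here. Symbols, positions and exon lengths came from GENCODE M21 for 54409 of 54532 genes.

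The counts were fitted in R 4.3.3 with edgeR 4.0.16 (filterByExpr, trimmed mean of M values, glmQLFit, glmQLFTest, Benjamini-Hochberg adjustment over 18573 genes), with all 10 libraries in 1 fit of 3 groups, or of 4 groups where the control lines were separated. SEs are those of the fit, and 95% intervals are unadjusted. DESeq2 1.42.0 and limma 3.58.1 were alternatives. The scripts were tested on simulated counts. Genes and lists were chosen with earlier results of these data known. Named list genes were taken from those called, those with an unadjusted p below 0.05, those with the lowest p in a knockout comparison and the 3 with the highest level per kilobase. Promoter letters came from RefSeq windows on GRCm38.p6. Some genes that these rules would name are not reported here.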

Additional observations from a re-analysis of the deposited data

Results flagged for a closer look

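In controls, 4 of 61 genes tested had 1 library far from the other 4 by the gap over the range, which chance gives in about 1 of 20 groups. Calb2 was at 78.4 CPM in control replicate 4, against 18.9 to 31.4 CPM in the other controls. Chodl was at 4.68 CPM in control replicate 2, against 0.297 to 1.40 CPM in the other controls. Gabra6 was at 103 CPM in control replicate 4, against 2.26 to 5.71 CPM in the other controls. Slc6a13 was at 3.90 CPM in control replicate 2, against 0 to 1.04 CPM in the other controls. None of the 10 marker genes was among them.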

How the results depend on the processing

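None of the 10 genes was called in any of the 70 alternative counts over the 4 comparisons. Signs turned in few places, mostly at values near 0. The log2 value became -0.015 for Gad2 and 0.16 for Pvalb in Mphosph8 loss with same-line controls, 0.24 for Slc32a1 in Morc2a loss with same-line controls, 0.0077 for Cck between lines with limma-voom, and 1.9e-05 for Npy in Mphosph8 loss with at least 10 counts in every library. For the difference of effects it became -0.0013 for Gad1 with no filter, and for Gad2 0.0099 with DESeq2, 0.0106 with other size factors and 0.0248 with at least 10 counts in every library. Vipr2 turned to -0.070 in Mphosph8 loss and 0.61 in Morc2a loss with same-line controls.

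Leaving out each library in turn gave ranges through 0 of -0.11 to 0.036 for Gad1, -0.19 to 0.047 for Pvalb, -0.11 to 0.067 for Npy and -0.014 to 0.21 for Lhx6 in Mphosph8 loss, and of -0.65 to 0.17 for Slc32a1 and -0.55 to 0.049 for Lamp5 in Morc2a loss. Between lines they were -0.24 to 0.045 for Vip, -0.73 to 0.28 for Lhx6, -0.16 to 0.13 for Cck and -0.36 to 0.040 for Lamp5. For the difference of effects they were -0.13 to 0.14 for Gad1, -0.072 to 0.091 for Gad2, -0.34 to 0.49 for Slc32a1, -0.14 to 0.86 for Lhx6 and -0.11 to 0.49 for Lamp5.

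Relative to the pan-neuronal sum, a setting chosen after seeing the data, values were 0.058 for Gad2, 0.12 for Slc32a1 and 0.050 for Lamp5 in Morc2a loss and 0.011 for Pvalb and 0.022 for Npy in Mphosph8 loss. Relative to the glutamatergic sum they were 0.035 for Gad1, 0.12 for Gad2, 0.18 for Slc32a1 and 0.11 for Lamp5 in Morc2a loss and 0.000686 for Pvalb and 0.012 for Npy in Mphosph8 loss.

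Residual correlations between groups were -0.0377 to 0.0676 for same-numbered libraries and -0.0671 to 0.0422 for the others. The labels do not say which libraries came from littermates, so these values cannot exclude a pairing. With the replicate block, 0 of the 10 genes were called, their median was 0.046 in Mphosph8 loss, Gad2 was at -0.013, Pvalb at 0.17 and Vipr2 at -0.048 in Mphosph8 loss, and all genes called were 12 in Mphosph8 loss and 46 in Morc2a loss. The block could not be fitted between lines or for the difference of effects.

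Over all genes, calls in Mphosph8 loss were 18, with 87 without a filter, 43 with DESeq2, 10 with same-line controls and 6 to 21 with a library left out. In Morc2a loss they were 11, with 98, 27, 10 and 3 to 26, 24 with at least 10 counts in every library and 6 with the 2 groups alone. Between lines they were 24, with 154, 96 and 11 to 44, and 14 with limma-voom, and for the difference 0, with 85, 45 and 0 to 7.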
